A study of Mus musculus with 2 samples.

Results

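Interferon-activated progenitor-like fibroblasts are stromal cells of the mouse mammary gland that carry transcripts of progenitor fibroblasts together with transcripts that interferons induce. They were chosen on raw counts of unique molecular identifiers (UMIs), which mark single captured transcripts. A cell needed at least 500 detected genes, at most 10% of UMIs from mitochondrial genes, at least 1 UMI of *Pdgfra*, which encodes a growth factor receptor found on fibroblasts, and at least 1 UMI of the progenitor genes *Pi16* or *Dpp4*. It also needed at least 4 of the 7 interferon-stimulated genes *Rsad2*, *Cxcl10*, *Ifit1*, *Ifit3*, *Isg15*, *Usp18* and *Zbp1*, each with at least 1 UMI. This gave 3899 pubertal and 2211 adult members, together 6110 of 44506 cells and of the 29709 cells that had *Pdgfra* with *Pi16* or *Dpp4*. They are set against comparison cells of the same gate and library that had at most 1 of the 7 markers, 7157 at puberty and 7633 in the adult.

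The study compared fibroblasts over mammary development, and 1 pubertal and 1 adult single-cell RNA-seq library were analysed here. All mice were female C57BL/6 of wildtype genotype, 4 weeks old at puberty and 9 weeks old and virgin as adults, and the labels name no treatment. Per the study's methods, stroma of 2 females per condition was sorted as Lineage–CD24–, a gate that leaves out blood, endothelial and epithelial cells. Whether each library held cells of 1 or of 2 females is not clear. With 1 library per stage, stage and library cannot be told apart, no test across samples was possible, and intervals in parentheses are 95% intervals for counting error only.

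Interferons are secreted proteins released by cells that sense foreign nucleic acid or other danger. Type I interferons bind a receptor of *Ifnar1* and *Ifnar2*, and interferon gamma one of *Ifngr1* and *Ifngr2*. JAK kinases on these receptors activate STAT proteins, which enter the nucleus, in part together with *Irf9*, and bind the interferon-stimulated response element (ISRE) or the gamma-activated site (GAS) upstream of target genes. The products block viral replication, present antigen, attract leukocytes and, in the case of *Usp18* and *Socs1*, dampen the pathway again. *Pi16* and *Dpp4* mark fibroblasts that are found in many tissues and are described as mesenchymal progenitors.

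The libraries held 21688 and 23183 cell barcodes, with a median of 11726 UMIs at puberty and 10781 UMIs in the adult. The filter removed 154 and 211 of them. Members were deeper than their comparison cells, with a median of 14206 against 11299 UMIs at puberty and 14761 against 11109 UMIs in the adult. Droplets ranked as probable doublets made up 14.4% of pubertal members (13.3 to 15.6) against 6.90% of comparison cells (6.33 to 7.51), and 18.5% of adult members (16.9 to 20.2) against 10.1% (9.47 to 10.8). The shares and ratios below were also computed without these droplets and without the cells with the most detected genes. The libraries shared 145 barcode sequences, carried by 29 pubertal and 12 adult members.

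All 3899 and 2211 members had at least 3 of the 5 fibroblast markers *Dcn*, *Lum*, *Pdgfra*, *Col1a2* and *Col1a1*. Of these, *Pdgfra* was required by the rule, and 99.96% of pubertal and 99.88% of adult comparison cells also had 3 or more. None of the members had 3 or more of the 10 macrophage, the 8 dendritic cell or the 10 lymphocyte markers. The upper 95% bound on such cells was 0.0946% at puberty and 0.167% in the adult. Of pericyte and smooth muscle markers, 34 pubertal (0.872%) and 16 adult members (0.724%) had 3 or more, against 0.699% and 0.288% of comparison cells. For Schwann cell markers 5 and 2 members did, for endothelial markers 1 and 2, and for epithelial markers 1 pubertal member did. The summed macrophage list came to 1.74 CPM (UMIs of a gene per 1000000 UMIs of the group) in pubertal members against 2.40 CPM in comparison cells, and to 1.36 against 1.80 CPM in the adult. *Ptprc*, the pan-leukocyte gene of that list, was at 0 in the members of both libraries. In the dendritic list nearly all of the 368 CPM of pubertal members and the 309 CPM of adult members was *Bst2*, which is itself induced by interferon. Epithelial markers were low but uneven, at 2.13 CPM in pubertal members against 0.247 CPM in comparison cells and 0.226 against 0.388 CPM in the adult. Pericyte and smooth muscle markers came to 94.3 against 69.9 CPM at puberty and 54.6 against 38.4 CPM in the adult, endothelial markers to 47.4 against 44.7 CPM and 31.3 against 22.3 CPM, lymphocyte markers to 1.76 against 1.35 CPM and 1.72 against 1.37 CPM, and Schwann cell markers to 35.6 against 33.8 CPM and 31.1 against 35.1 CPM. Cell cycle genes came to 54.6 against 49.9 CPM at puberty and 75.6 against 51.3 CPM in the adult. The part of these cells, of depth and of doublets in the results was not tested.

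The genes of the gate lay within 2-fold in members and comparison cells. *Pdgfra* stood at 355 against 363 CPM at puberty and 573 against 608 CPM in the adult. *Pi16*, a secreted peptidase inhibitor, stood at 1070.1 against 1339 CPM and at 921 against 1002 CPM, and *Dpp4*, a surface peptidase, at 724 against 783 CPM and at 657 against 629 CPM. In these cells of unlike depth *Pi16* was detected in 91.0% of pubertal members and 93.0% of comparison cells, and in 80.5% and 79.4% of adult ones. *Dpp4* was detected in 95.7% against 92.5% and in 87.2% against 79.3%.

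The regulatory sequence upstream of the marker genes is shown first, because every marker with a promoter in the table held the same element. The 250 bases before the start of each transcript were read from RefSeq promoters of mouse build GRCm38.p6 and searched on both strands for the ISRE core GAAANNGAAA, where N is any base. Capitals mark each match, also where the core lies on the other strand. *Ifit1* (chr19:34640639-34640888, plus strand) encodes a protein that binds foreign RNA, and it held matches that began 104 and 85 bases before the start. *Isg15* (chr4:156200819-156201068, minus strand), a ubiquitin-like modifier, held overlapping matches at 78, 72 and 66 bases. *Rsad2* (chr12:26456453-26456702, minus strand), which encodes the antiviral enzyme viperin, held 1 match at 120 bases. *Cxcl10* (chr5:92348890-92349139, minus strand), a chemokine for activated T cells, held 1 at 213 bases. Outside the rule, *Gbp2* (chr3:142620413-142620662, plus strand), a guanylate-binding GTPase, held 1 at 59 bases, and the inhibitor *Socs1* (chr16:10785537-10785786, minus strand) held overlapping ones at 83 and 77 bases. *Cxcl9* (chr5:92328080-92328329, minus strand), a neighbour of *Cxcl10* with the same receptor, is shown as a gene without a match in this window.
Ifit1: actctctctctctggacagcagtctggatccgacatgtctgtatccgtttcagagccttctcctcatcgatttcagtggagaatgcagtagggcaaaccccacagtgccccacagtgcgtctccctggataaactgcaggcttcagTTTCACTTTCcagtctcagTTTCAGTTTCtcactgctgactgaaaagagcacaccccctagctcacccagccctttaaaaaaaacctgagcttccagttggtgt
Isg15: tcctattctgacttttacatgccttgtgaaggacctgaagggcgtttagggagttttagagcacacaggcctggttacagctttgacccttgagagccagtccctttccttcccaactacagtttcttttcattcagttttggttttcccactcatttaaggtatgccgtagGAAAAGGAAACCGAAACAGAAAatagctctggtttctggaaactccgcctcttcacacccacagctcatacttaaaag
Rsad2: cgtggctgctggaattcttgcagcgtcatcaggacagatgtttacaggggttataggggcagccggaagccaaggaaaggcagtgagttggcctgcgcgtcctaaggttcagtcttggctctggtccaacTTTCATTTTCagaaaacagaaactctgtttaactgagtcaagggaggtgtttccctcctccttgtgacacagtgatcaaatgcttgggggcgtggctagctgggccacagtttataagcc
Cxcl10: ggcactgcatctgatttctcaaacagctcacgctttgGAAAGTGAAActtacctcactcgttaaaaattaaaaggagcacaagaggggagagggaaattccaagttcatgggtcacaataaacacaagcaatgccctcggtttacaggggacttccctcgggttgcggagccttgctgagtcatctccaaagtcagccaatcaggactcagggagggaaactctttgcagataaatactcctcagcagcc
Gbp2: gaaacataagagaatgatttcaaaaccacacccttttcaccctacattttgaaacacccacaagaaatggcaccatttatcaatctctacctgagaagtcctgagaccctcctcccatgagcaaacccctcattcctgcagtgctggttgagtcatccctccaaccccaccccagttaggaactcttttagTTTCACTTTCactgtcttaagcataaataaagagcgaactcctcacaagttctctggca
Socs1: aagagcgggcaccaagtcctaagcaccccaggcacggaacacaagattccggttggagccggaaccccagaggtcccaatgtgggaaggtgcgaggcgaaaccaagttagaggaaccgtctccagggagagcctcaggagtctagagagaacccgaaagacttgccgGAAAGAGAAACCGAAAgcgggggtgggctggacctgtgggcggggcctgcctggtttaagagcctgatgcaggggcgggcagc
Cxcl9: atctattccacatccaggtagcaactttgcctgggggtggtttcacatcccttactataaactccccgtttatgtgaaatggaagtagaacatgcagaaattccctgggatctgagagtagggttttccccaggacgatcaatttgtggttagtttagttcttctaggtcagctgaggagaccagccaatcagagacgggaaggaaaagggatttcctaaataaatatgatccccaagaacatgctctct

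The ISRE core was present in 2.98% of all 32851 promoters of the table, belonging to 3.46% of 27025 genes. Of the 7 markers, 5 had a promoter in it, and all 5 held the core. Among the 86 genes that were at least 2-fold higher in members at both stages, 68 were matched and 23 of them held the core (33.8%), compared with 3.01% of the 4611 matched genes that were tested and were not higher at both stages. The GAS core TTCNNNGAA was found in 13 of these 68 genes (19.1%). It was found in 7.03% of the matched genes that were tested and not higher at both stages, and in 8.13% of all genes of the table. Among gene lists the ISRE core was most frequent for the GBP and IRG GTPases, at 10 of 11 matched genes. The ISRE core was also found in 12 of 33 antiviral effectors, 3 of 17 genes of MHC class I presentation and 2 of 11 chemokines. None of the 5 interferon receptors, 11 collagens or 14 progenitor genes held it. These matches describe letters in a fixed window and say nothing about what was bound there.

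The 7 markers themselves chose the cells, so their values describe the choice and support nothing. *Isg15* was detected in 90.2% of pubertal and 87.97% of adult members, and *Ifit1* in 86.3% and 85.8%. *Cxcl10* was detected in 84.3% of pubertal members and 59.4% of adult members. *Usp18*, an enzyme that removes ISG15 from proteins, was found in 76.9% and 72.7%, and *Zbp1*, a sensor of left-handed nucleic acid, in 68.0% and 63.8%. *Ifit3* ran the other way between the libraries, at 59.0% of pubertal and 74.6% of adult members. *Rsad2* was the least often detected, in 49.4% and 42.3%. The median member held 10 UMIs of *Cxcl10* at puberty and 1 in the adult, while the median for *Ifit1* was 4 and 3 UMIs. Members were therefore not alike in which markers they showed. All 64 possible combinations of 4 or more markers occurred in each library, and the commonest was all 7 together, in 14.2% of pubertal and 7.78% of adult members.

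In summed counts *Ifit1* stood at 600.1 CPM in pubertal members and 5.01 CPM in comparison cells, and at 440 and 5.27 CPM in the adult. *Isg15* stood at 349 against 11.5 CPM and at 288 against 11.4 CPM. *Cxcl10* stood at 1252 against 103 CPM at puberty and at 518 against 27.3 CPM in the adult. Cells were also chosen on a random part of their UMIs and read in the rest. The log2 ratios were then 5.66 and 5.14 for *Ifit1* and 3.27 and 3.84 for *Cxcl10* at puberty and in the adult. The smallest were those of *Zbp1*, at 1.96 and 1.87. Both parts came from the same cells, so these values too describe the choice and support nothing. The reads counted for *Ifit3* may include some of its close copy *Ifit3b*, and *Cxcl10* and *Usp18* lie opposite other annotated genes.

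The cut at 4 markers does not fall in a gap. At puberty the number of cells fell from 3890 with 1 marker to 2981, 2023, 1413, 1082, 850 and 554 with 2 to 7 markers, and in the adult from 3463 to 2346, 1459, 1023, 632, 384 and 172. The values just inside and just outside the cut are given without a test. *Ifit1* stood at 263 CPM in pubertal cells with 4 markers and at 111 CPM in those with 3, and at 232 and 111 CPM in the adult. *Isg15* stood at 199 and 109 CPM, and at 181 and 108 CPM. The members are a range cut from a count of detected markers, whether they form a separate state was not tested, and 1413 of 3899 pubertal and 1023 of 2211 adult members had exactly 4 markers.

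**Figure D1:**
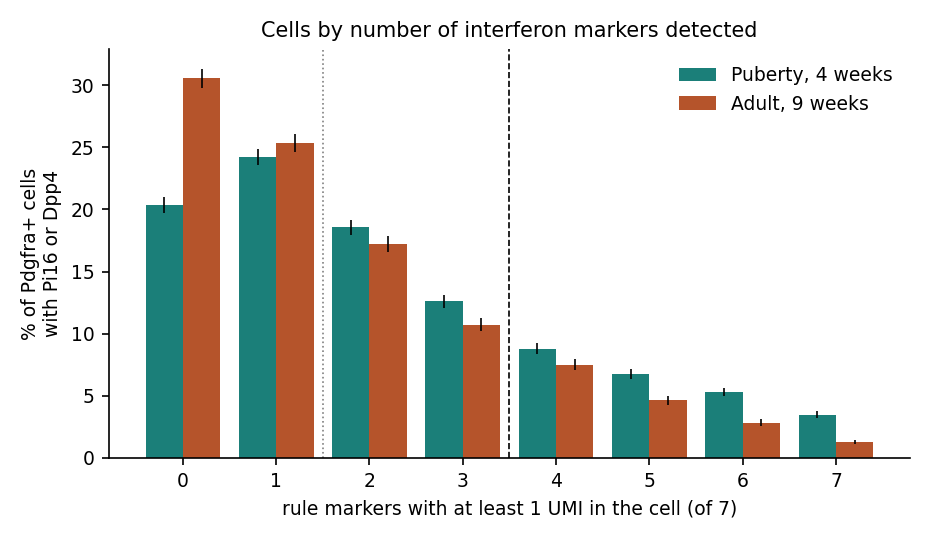
Share of *Pdgfra*+ cells with *Pi16* or *Dpp4* (y axis, percent) that had 0 to 7 of the 7 interferon markers (x axis), per library, with exact 95% binomial intervals. The dashed line marks the cut for members and the dotted line that for comparison cells, and the share declines from 24.2% at 1 marker to 3.45% at 7 markers at puberty, and from 25.4% to 1.26% in the adult, without a second peak.

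Members made up 24.3% (23.6 to 24.9) of the *Pdgfra*+ cells with *Pi16* or *Dpp4* at puberty and 16.2% (15.6 to 16.8) of those in the adult. The adult share divided by the pubertal one was 0.667 (0.633 to 0.703). Because detection depends on depth, each cell was also thinned to the same number of UMIs for the marker count. At 6000 UMIs the shares were 14.6% and 7.82%, and the ratio was 0.535 (0.496 to 0.577). At 3000 UMIs they were 7.91% and 3.67%, with a ratio of 0.463 (0.417 to 0.514), and 229 pubertal and 119 adult cells were left out as too shallow. The adult share was the lower one at each depth, in this 1 pair of libraries.

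The 4 or more markers were not particular to cells with *Pi16* or *Dpp4*. Among *Pdgfra*+ cells without either transcript, 25.02% of 2818 cells had them at puberty (23.4 to 26.7) and 9.31% of 7350 in the adult (8.65 to 9.99), at a median depth of 10995 and 8899 UMIs. Thinned to 3000 UMIs these shares were 11.3% (10.1 to 12.5) at puberty, above the 7.91% (7.50 to 8.35) of cells with *Pi16* or *Dpp4*, and 3.37% (2.96 to 3.81) in the adult, where the value for cells with either transcript was 3.67% (3.36 to 4.00). Mural cells, pericytes and smooth muscle cells chosen by 3 or more of their markers without *Pdgfra*, served as a reference from another cell type. They reached 4 markers in 6 of 698 cells at puberty (0.860%, 0.316 to 1.86) and in 3 of 388 in the adult (0.773%, 0.160 to 2.24), at medians of 6370.5 and 6313 UMIs. At 3000 UMIs the mural shares were 0.447% and 0.612%.

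Single markers behaved less uniformly than the count of 4. At 3000 UMIs *Isg15* was found in 27.3% (23.9 to 30.8) of the mural cells at puberty and 19.96% of *Pdgfra*+ cells with *Pi16* or *Dpp4* (19.3 to 20.6), and in 17.7% and 14.7% in the adult. In summed counts *Isg15* stood at 180 CPM in pubertal mural cells and 129.8 CPM in the *Pdgfra*+ cells, so that its detection did not set the *Pdgfra*+ cells apart, and free RNA and transcription in mural cells were not told apart. *Ifit1*, by contrast, was found in 1.79% (0.927 to 3.10) of mural cells at puberty and 18.5% of the *Pdgfra*+ cells (17.9 to 19.1), and *Cxcl10* in 3.28% (2.07 to 4.92) and 34.2% (33.5 to 34.9).

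**Figure D2:**
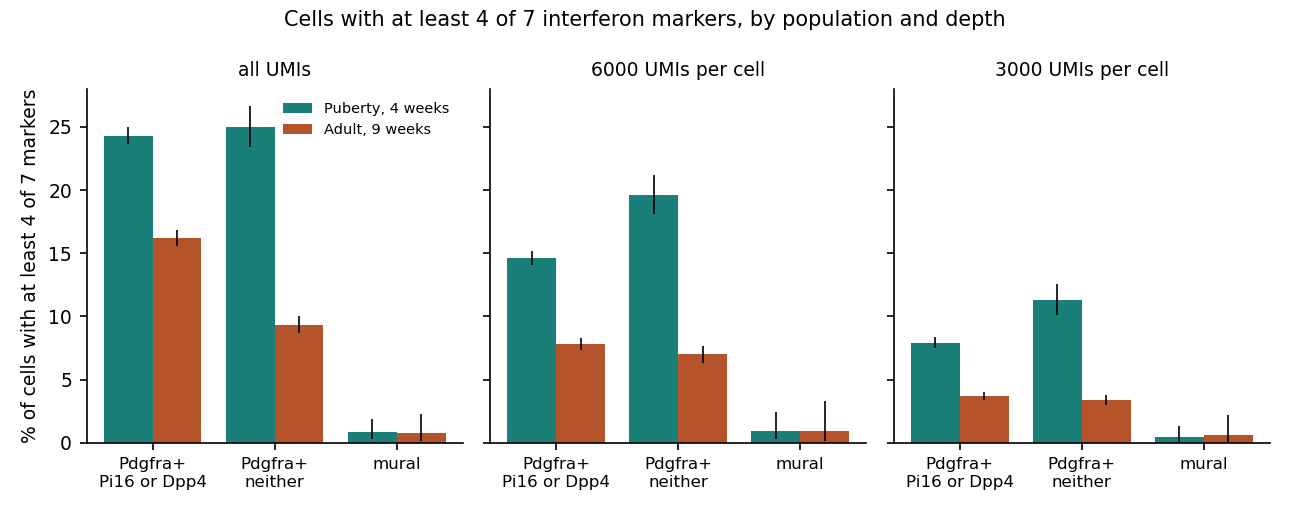
Percent of cells with at least 4 of the 7 markers (y axis) in *Pdgfra*+ cells with *Pi16* or *Dpp4*, *Pdgfra*+ cells with neither, and mural cells, per library, with all UMIs and after thinning to 6000 and 3000 UMIs (panels); error bars are exact 95% binomial intervals. Both *Pdgfra*+ populations lie above the mural cells in every panel, and the adult share is the lower one in both, for example 7.82% against 14.6% at 6000 UMIs for cells with *Pi16* or *Dpp4*.

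Several genes outside the rule were higher in cells with more markers. The markers were counted in the same cells, so this order describes what came with the choice. Cells of 10000 to 20000 UMIs were used, which narrows the range of depth but does not make depth equal. *Mx2*, a dynamin-like GTPase that restricts viruses, went from 18.3 CPM in pubertal cells with no marker to 255 CPM in those with 7. In the adult *Mx2* went from 25.4 to 411 CPM. *Oasl2*, of the oligoadenylate synthetase family, went from 22.7 to 355 CPM and from 30.7 to 515 CPM. Both were higher at each added marker in both libraries. *B2m*, the light chain of MHC class I, went from 1204 to 2077 CPM and from 1390 to 2598 CPM, again higher at each step. *Cd34* and *Ifnar1* showed no steady order. *Cd34*, a surface marker of progenitor fibroblasts, lay between 707 and 798 CPM at puberty and between 705 and 886 CPM in the adult. *Ifnar1* lay between 40.9 and 51.2 CPM and between 35.6 and 55.4 CPM. The order held below the cut too, with *Mx2* at 72.4 and 94.8 CPM in cells with 3 markers.

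**Figure D3:**
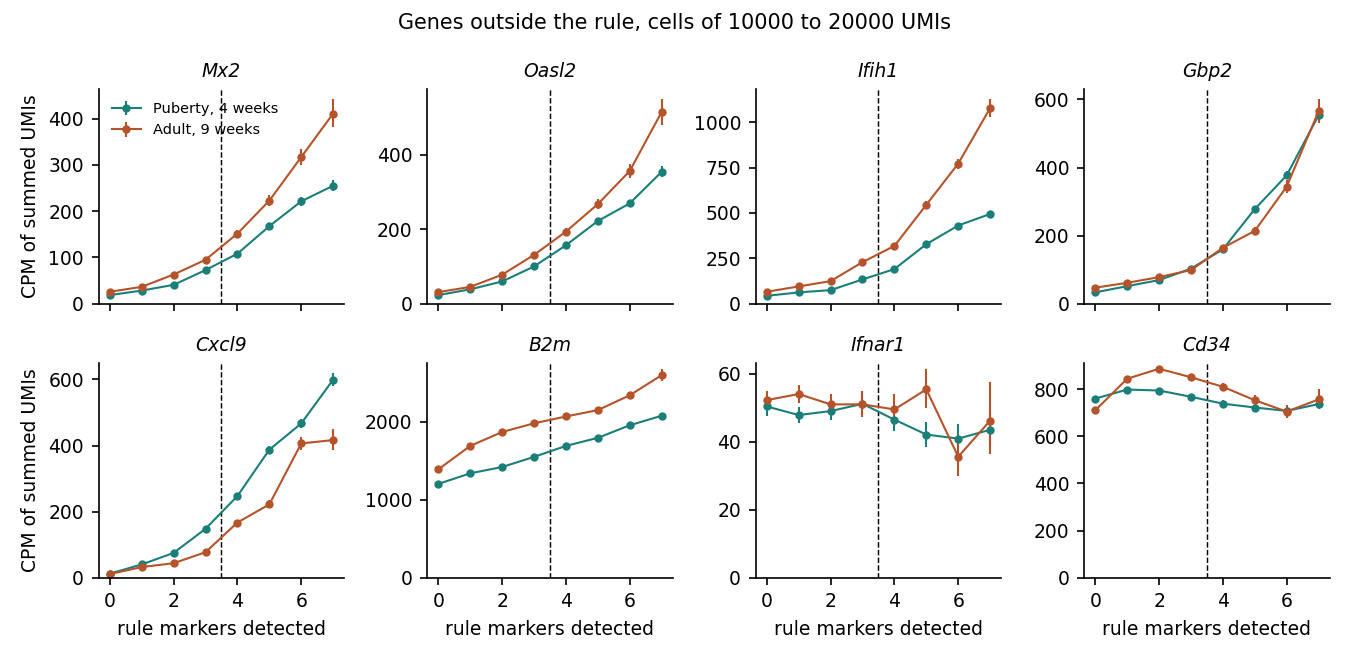
Summed level in CPM (y axis, linear from 0 in each panel) of 8 genes outside the rule in *Pdgfra*+ cells with *Pi16* or *Dpp4* of 10000 to 20000 UMIs, by the number of markers detected (x axis), per library, with exact 95% Poisson intervals and a dashed line at the cut for members. *Mx2*, *Oasl2*, *Ifih1*, *Gbp2*, *Cxcl9* and *B2m* are higher at each added marker (*Gbp2* from 32.9 to 553 CPM at puberty and from 46.6 to 565 CPM in the adult), while *Ifnar1* and *Cd34* have no steady order. Markers and levels were read in the same cells, so the order describes what came with the choice.

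Members were then compared with comparison cells across all genes with at least 20 CPM in either sum and outside the 7 markers. At puberty 108 of 6052 genes were at least 2-fold higher in members (1.78%) and 5 at least 2-fold lower (0.0826%). In the adult 105 of 6517 were higher (1.61%) and 74 lower (1.14%). The median log2 ratio of all tested genes was -0.11 at puberty and -0.07 in the adult. The genes higher at both stages numbered 86, which is 79.6% of the pubertal and 81.9% of the adult ones. Since the rule chose cells by interferon markers from the same counts, the ratios that follow describe what came with that choice and are given without a test. Without probable doublets and the cells with most genes the higher counts were 110 and 117, and they held 105 of the 108 pubertal and all 105 of the adult genes.

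Interferon transcripts themselves were nearly absent. The 21 ligand genes listed summed to 0.168 CPM in pubertal members and 0.223 CPM in comparison cells, and to 0.141 and 0.0342 CPM in the adult. *Ifnb1*, the interferon fibroblasts are best known to make, gave 4 UMIs in all pubertal members. Differences at this depth were not detectable.

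Receptor genes differed little from comparison cells. None of the 5 tested receptor genes passed 2-fold at either stage, and their median log2 ratio was -0.04 at puberty and 0.13 in the adult. *Ifnar1* stood at 43.7 CPM in pubertal members and 49.1 CPM in comparison cells, a ratio of 0.889 (0.846 to 0.934), and at 48.1 and 51.1 CPM in the adult, 0.942 (0.891 to 0.996). *Ifnar2* had ratios of 1.19 and 1.21, *Ifngr1* of 0.973 and 1.09 and *Ifngr2* of 0.847 and 0.940.

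Of the signalling and transcription factors, 3 of 10 tested were at least 2-fold higher at puberty and 4 of 10 in the adult, with median log2 ratios of 0.66 and 0.77. *Irf7*, the amplifier of type I interferon production, stood at 95.2 against 30.8 CPM (3.09) and at 84.9 against 25.2 CPM (3.36). *Irf1*, a factor induced above all by interferon gamma, stood at 590.2 against 194 CPM (3.05) and at 493 against 195 CPM (2.54). *Stat2* and *Irf9*, both part of the complex that binds the ISRE, had ratios of 1.87 and 1.71 at puberty and of 2.28 and 1.97 in the adult. *Jak1*, the kinase shared by both receptors, was near even, at 1.02 and 1.13. *Stat3*, which answers mainly to interleukins, was at 0.921 and 0.886.

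Among sensors of foreign nucleic acid, 5 of 12 tested were at least 2-fold higher at each stage. *Ifih1*, which encodes the RNA sensor MDA5, stood at 312 against 54.1 CPM at puberty (ratio 5.76, 5.58 to 5.96) and at 490 against 78.5 CPM in the adult (6.24, 6.07 to 6.42). *Rigi*, the sensor of RNA ends, stood at 118 against 35.8 CPM (3.30) and at 119 against 42.2 CPM (2.83). *Ifi203*, of an interferon-inducible DNA-binding family, stood at 1529 against 346 CPM (4.42) and at 963 against 267 CPM (3.61). *Tbk1*, the kinase below these sensors, had ratios of 0.959 and 1.08, and *Tlr4*, the receptor for bacterial endotoxin, of 0.968 and 1.04. *Ifih1* and *Rigi* are themselves known interferon-induced genes.

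The antiviral effectors, with 41 genes listed, were the largest group. At puberty 24 of 30 tested were at least 2-fold higher in members and in the adult 23 of 32, with none lower and median log2 ratios of 1.98 and 1.77. *Ifit3b* had the highest ratio of all genes at both stages, at 47.3 against 1.52 CPM at puberty (ratio 31.1, 26.0 to 37.6) and 54.9 against 2.36 CPM in the adult (23.3, 20.1 to 26.97), but as a close copy of *Ifit3* it is not independent of the rule. *Mx2* stood at 166 against 23.8 CPM (6.98, 6.65 to 7.33) and at 199 against 30.9 CPM (6.44, 6.16 to 6.74). *Oasl2* stood at 219 against 31.7 CPM (6.90) and at 245 against 38.8 CPM (6.32). *Eif2ak2*, the kinase PKR that halts translation on double-stranded RNA, had ratios of 4.02 and 3.72. *Bst2*, which tethers budding virus, had ratios of 2.13 and 2.14, and its log2 ratio reached 0.95 and 0.93 at the lowest of the alternatives, under the 2-fold line. *Ifitm2*, of the family that blocks viral entry, was at 1.09 and 1.04.

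All tested GBP and IRG GTPases, which attack the vacuoles of intracellular pathogens, were at least 2-fold higher, 13 of 13 at puberty and 14 of 14 in the adult, with median log2 ratios of 2.37 and 2.18. *Gbp5* stood at 39.8 against 3.46 CPM at puberty (ratio 11.5, 10.2 to 13.1) and at 48.4 against 5.32 CPM in the adult (9.11, 8.22 to 10.1). *Gbp2* stood at 284 against 43.6 CPM (6.51) and at 220 against 51.7 CPM (4.25). *Iigp1* stood at 1208 against 171 CPM (7.08) and at 1077 against 213 CPM (5.04). The lowest were *Irgm2* at puberty, at 3.72, and *Gbp9* in the adult, at 2.79. Several of these genes have near-identical neighbours, so that reads may be split between copies, and *Or2v1*, an olfactory receptor gene with ratios of 11.3 and 9.43, is annotated over 20388 bases of *Ifi47* (8.02 and 5.82) on the same strand, so that their reads cannot be told apart. The other genes among the 10 with the highest ratios at either stage were *Tgtp2* (8.64 at puberty), *Gm4951* (8.35 and 7.62), *Gm4841* (7.47 and 6.60), *Slfn9* (6.999 at puberty), *Gvin1* (6.76 in the adult), *Oas2* (6.86 in the adult) and *Car3*, at 20.2 against 2.08 CPM in the adult (9.72). The log2 ratio of *Car3* in the adult was 3.28 and ranged from 1.05 to 4.24 over the alternatives. It was 1.33 with both *Pi16* and *Dpp4* required.

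Genes of MHC class I presentation had smaller ratios. All 16 tested genes at puberty and all 18 in the adult had ratios above 1, but 2 passed 2-fold at each stage, and the median log2 ratios were 0.45 and 0.58. These were *Nlrc5*, the transactivator of class I genes, at 127 against 27.5 CPM at puberty (ratio 4.61) and 80.0 against 20.7 CPM in the adult (3.86), and *Tap1*, a subunit of the peptide transporter, at 2.86 and 2.42. *B2m* stood at 1797 against 1275 CPM (1.41, 1.40 to 1.42) and at 2133 against 1452 CPM (1.47, 1.46 to 1.48). The heavy chain *H2-K1* had ratios of 1.31 and 1.49. The 8 class II genes listed were too low to be tested, at a sum of 4.68 against 4.36 CPM at puberty and 5.77 against 6.66 CPM in the adult.

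Chemokines showed a wide spread. All 10 tested at each stage had ratios above 1, and 3 at puberty and 4 in the adult passed 2-fold. *Cxcl9* stood at 370 against 26.8 CPM at puberty (ratio 13.8, 13.2 to 14.4) and at 232 against 20.2 CPM in the adult (11.5, 10.9 to 12.1). The monocyte attractant *Ccl7* stood at 604 against 222 CPM (2.72) and at 248 against 99.6 CPM (2.49), and *Ccl2* had ratios of 2.12 and 2.10. *Ccl19*, which attracts lymphocytes and dendritic cells to lymphoid sites, passed 2-fold in the adult at 43.0 against 15.6 CPM (2.76) and was below the limit for testing at puberty. *Cxcl12*, a constitutive chemokine of stroma, had ratios of 1.52 and 1.23.

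Inflammatory genes outside the interferon pathway had smaller ratios. Of 15 tested genes of the NF-kB response 1 passed 2-fold, *Il6*, at 273 against 111 CPM at puberty (ratio 2.47) and at 157 against 66.0 CPM in the adult (2.38). The inhibitor *Nfkbia*, a direct NF-kB target, was at 0.985 and 1.18. Of 8 complement genes none passed 2-fold at puberty and 2 did in the adult, *C4b* (1.99 at puberty and 2.59 in the adult) and *Cfb* (1.81 and 2.12). In adult cells with both *Pi16* and *Dpp4*, a stricter gate added after the data were seen, the log2 ratios were 0.81 for *Il6*, 0.80 for *Ccl2*, 0.81 for *Ccl7*, 0.91 for *C4b* and 0.64 for *Cfb*, all under the 2-fold line.

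Of the pathway's own inhibitors, 1 of 6 tested passed 2-fold. This was *Socs1*, which blocks JAK kinases, at 391 against 104 CPM at puberty (ratio 3.76, 3.67 to 3.86) and at 163 against 58.4 CPM in the adult (2.80, 2.70 to 2.91). *Socs3*, which restrains mainly the *Il6* receptor, had ratios of 1.77 and 1.55, and *Pias1*, an inhibitor of activated STAT proteins, of 0.759 and 0.765. Genes of programmed cell death were also among the higher ones, 3 of 6 tested at each stage. *Daxx*, a death-domain-associated nuclear protein, had ratios of 4.63 and 3.53, *Mlkl*, the executor of necroptosis, of 3.35 and 2.29, and *Casp4*, an inflammatory caspase, of 2.37 and 2.06. In the adult the log2 ratios of *Mlkl* and *Casp4* were 0.94 and 0.88 with members of 3 or more markers, and that of *Casp4* was 0.96 with both *Pi16* and *Dpp4*, all under the 2-fold line.

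Genes of progenitor fibroblasts lay within 2-fold of comparison cells. None of the 18 tested at puberty or the 17 in the adult passed 2-fold, with median log2 ratios of -0.24 and -0.04, the latter 0.01 under scaling by the trimmed mean of M-values (TMM). *Cd34* stood at 709 against 774 CPM at puberty (ratio 0.915, 0.904 to 0.927) and at 744 against 726 CPM in the adult (1.03, 1.01 to 1.04). *Sema3c*, a guidance ligand of the progenitor signature, had ratios of 0.826 and 0.971, and *Anxa3*, a membrane-binding annexin, of 0.825 and 1.001. *Ly6a*, a stem cell marker that interferons are also known to induce, was the highest of this list, at 1859 against 1438 CPM (1.29) and at 1680 against 1026 CPM (1.64). Summed over the list, the median cell held 15899 CPM among pubertal members and 17800 CPM among comparison cells, and 11812 and 10386 CPM in the adult. For the class marked by *Mmp3* and *Fabp4* these medians were 699 and 571 CPM at puberty and 1452 and 1509 CPM in the adult, and for the lobular-like class 961 and 1075 CPM and 1168 and 974 CPM. Of the 8 genes of the former class tested at puberty, 1 was at least 2-fold higher, *Fabp4* (2.29), and 1 lower, *Mgp* (0.454). In the adult none of 10 was higher and 3 were lower, the lowest being *Crabp1* (0.138). The median log2 ratios of this class were 0.20 at puberty and -0.64 in the adult.

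Matrix and stress genes were close to even. None of 15 collagens passed 2-fold at either stage, with median log2 ratios of 0.12 and -0.03 (0.02 in the adult under TMM), and *Col1a1* stood at 10985 against 9168 CPM at puberty (ratio 1.20) and at 4485 against 5106 CPM in the adult (0.878). None of 20 immediate early and heat shock genes, which often rise during tissue dissociation, passed 2-fold, with medians of -0.15 and -0.06. *Fos* had ratios of 0.900 and 0.935, and *Hspa1a*, an inducible heat shock protein, of 0.616 and 0.674.

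Genes that were lower in members were few at puberty. They were *Hmcn1*, an extracellular hemicentin (17.7 against 49.4 CPM, ratio 0.359), *Stmn4*, a microtubule regulator (0.395), *Mgp*, a matrix protein that limits calcification (0.454), the metalloprotease *Adamts16* (0.474) and *Rgs2*, a regulator of G protein signalling (0.491). The next 5, within 2-fold, were *Ccn2* (0.508), *Cacna1c* (0.512), *Tnc* (0.519), *Tsc22d3* (0.537) and *Ntrk3* (0.542). The 74 lower genes of the adult were led by *Crabp1*, a carrier of retinoic acid, at 5.003 against 36.1 CPM (ratio 0.138, 0.118 to 0.161). They included the collagens *Col25a1* (0.145), *Col7a1* (0.156) and *Col13a1* (0.233), which were not on the collagen list, the nitric oxide synthase *Nos1* (0.166), *Igfbp2*, a binding protein of insulin-like growth factors (0.163), and *Pla2g7*, a phospholipase (0.197). *Dach1*, a nuclear factor, stood at 3.48 against 22.9 CPM (0.152), and *Adgrl3* (0.191) and *Scube1* (0.195) were also among the 10 lowest. These values depend on the gate. With both *Pi16* and *Dpp4* required, 5 adult and 2 pubertal genes were lower instead of 74 and 5, and at puberty the log2 ratio of *Tnc* turned from -0.94 to 1.03, while those of *Hmcn1*, *Mgp*, *Rgs2* and *Cacna1c* were -0.23, -0.09, -0.04 and -0.04. Those of *Stmn4* and *Adamts16* stayed past 2-fold, at -1.39 and -1.10. The log2 ratio of *Pla2g7* in the adult went from -2.35 to -0.50 and that of *Dach1* from -2.72 to -0.75. *Adgrl3* (-0.57) and *Col13a1* (-0.97) also came under the 2-fold line. Past it stayed *Igfbp2* (-1.94), *Crabp1* (-1.50), *Scube1* (-1.35), *Nos1* (-1.34), *Col25a1* (-1.23) and *Col7a1* (-1.20). The count of 5 adult genes covers only genes with at least 20 CPM under that gate, a limit not applied to these single ratios. Under the same gate 101 genes were higher at puberty, 98 of them among the 108, and 82 in the adult, 78 of them among the 105.

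**Figure D4:**
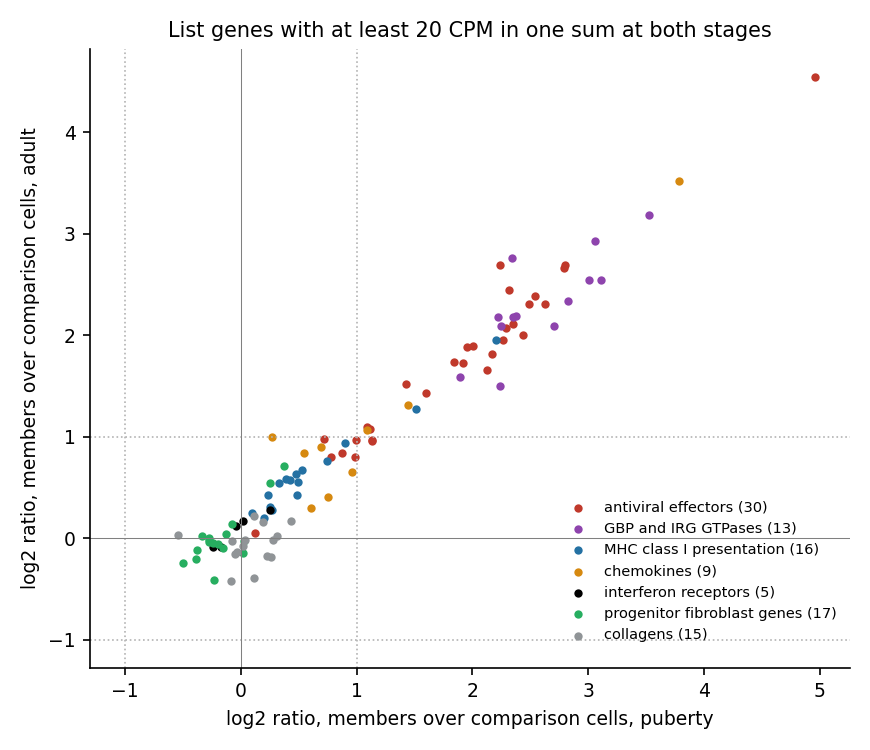
Log2 ratio of members over comparison cells at puberty (x axis) and in the adult (y axis) for list genes with at least 20 CPM in 1 of the sums at both stages, coloured by list, with dotted lines at 2-fold. Antiviral effectors and GTPases lie in the upper right, up to *Ifit3b* at 4.96 and 4.54, while receptors, progenitor genes and collagens lie around 0.

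Finally, adult members were set against pubertal ones. Of 6329 genes, 207 were at least 2-fold higher in the adult (3.27%) and 100 lower (1.58%), with a median log2 ratio of 0.12 over all of them. The comparison cells of the same libraries gave 287 of 6542 higher (4.39%) and 100 lower (1.53%). TMM scaling moved every ratio between the members by -0.18 on the log2 scale and gave 149 higher and 173 lower. Interferon-induced effectors lay within 2-fold. Members of both stages were chosen by the same cut of interferon markers, so this likeness describes the choice and supports nothing. None of 32 antiviral effectors and none of 14 GTPases passed 2-fold, with median log2 ratios of 0.02 and -0.07. In comparison cells none of 24 and none of 8 did, with medians of 0.19 and 0.25. In members *Mx2* had an adult over puberty ratio of 1.20 (1.16 to 1.24).

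Signalling genes passed 2-fold in both directions. Of 11 chemokines 3 were higher and 3 lower in adult members, and of 15 NF-kB response genes 3 were higher and none lower. *Cxcl14*, a chemokine of skin and stroma, stood at 132 CPM in adult and 22.5 CPM in pubertal members (ratio 5.86, and 4.77 in comparison cells), *Ccl19* at 43.0 and 15.2 CPM (2.83, and 3.88) and *Cxcl13*, which attracts B cells, at 242 and 117 CPM (2.07, and 1.25). The adhesion molecule *Icam1* had a ratio of 2.48 in members and 2.49 in comparison cells. *Socs1* stood at 163 CPM in adult and 391 CPM in pubertal members (ratio 0.418, 0.406 to 0.430), against 0.562 in comparison cells. *Ccl7* stood at 248 and 604 CPM (0.411) and *Ccl2* at 189 and 383 CPM (0.493), with 0.449 and 0.499 in comparison cells. Of the rule's markers, *Cxcl10* stood at 518 and 1252 CPM (0.413) and *Ifit3* at 272 and 208 CPM (1.31). *Ifngr1* stood at 191 and 102 CPM (1.88), with 1.67 in comparison cells. Stress genes differed between the libraries too. Of 20 immediate early and heat shock genes 4 were higher and none lower in adult members, and 2 were higher in adult comparison cells. *Hspa1b* had a ratio of 8.34 in members and 8.18 in comparison cells, and *Hspa1a* of 5.25 and 4.80. The part of dissociation in the stage ratios was not tested.

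The genes with the widest gap between the stages had a gap of the same direction in comparison cells. The 5 highest were *Grm8*, a glutamate receptor (ratio 12.0 in members and 7.47 in comparison cells), *Frmpd4*, a scaffold protein (11.2 and 9.13), the hemicentin *Hmcn2* (10.6 and 5.65), *Thbs4*, a thrombospondin of lobular-like fibroblasts (9.46 and 4.89), and *Scg3*, a secretory granule protein (8.61 and 11.7). The 5 lowest were *Rasgef1c*, a Ras exchange factor (0.102 and 0.0629), *Il1rl1*, the receptor of interleukin 33 (0.157 and 0.142), the non-coding gene *B830012L14Rik* (0.179 and 0.148), the neutrophil attractant *Cxcl2* (0.194 and 0.255) and *Cpz*, a carboxypeptidase (0.196 and 0.292). Of 15 collagens 3 were higher and 1 lower in adult members. The lower one was *Col1a1*, at 4485 against 10985 CPM (0.408), and comparison cells had 0.557.

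Members differed among themselves in *Cxcl9*. A *Cxcl9* UMI was found in 1618 pubertal members (41.5%, 39.9 to 43.1) and 606 adult members (27.4%, 25.6 to 29.3), against 7.84% and 5.41% of comparison cells. Members with it carried more of the 7 markers, a mean of 5.34 against 5 at puberty and 5.08 against 4.79 in the adult, and were deeper, at a median of 14758 against 13926 UMIs at puberty and 15966 against 14368 UMIs in the adult. *Irf1* was higher in them, at 741 against 475 CPM at puberty (ratio 1.56), and 2.04 in the adult. The progenitor genes *Sema3c* and *Anxa3* had ratios of 0.908 and 0.887 at puberty and of 0.518 and 0.522 in the adult. At puberty 2 of 5859 genes were at least 2-fold higher in members with *Cxcl9* and none lower, and in the adult 18 of 6373 were higher and 33 lower. The 2 pubertal genes were *Car3*, a carbonic anhydrase of fat cells (4.34), and the fatty acid transporter *Cd36* (2.11). In the adult *Cd36* (3.55), *Fabp4*, a lipid carrier of preadipocytes (2.57), and *Ccl19* (2.51) were higher, and *Akr1c18*, a progesterone-metabolising enzyme (0.289), *Il33*, an alarmin (0.3999), and *Pgr*, the progesterone receptor (0.315), were lower. *Car3* ran the other way in the adult, at 0.284. These genes were picked by the size of their ratio within cells split on 1 gene of the same counts, so they are given as a description.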

How the data were processed

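The authors deposited raw UMI counts per gene and barcode (33696 genes listed), made with Cell Ranger 8.0.1 on mm10 per the submitters' processing notes; the study's methods and the labels differ on the kit, the Cell Ranger version and the pubertal age, and the labels were followed. Per the labels both libraries are replicate 2. Cells were read with Python 3.11.15, numpy 2.4.6, scipy 1.17.1 and pandas 2.3.3, and filtered as the report says. Counts were summed per library and group, divided by the group's total and given per 1000000 UMIs (CPM). Genes with at least 20 CPM in either sum were compared, and a ratio past 2 was called. No test across samples was made. Intervals are exact Poisson or Clopper-Pearson intervals at 95%, for counting error only; thinned counts used 1 fixed seed. Doublets were ranked with Scrublet in scanpy 1.11.5, at 0.4% per 1000 barcodes, and kept in the main values. TMM factors came from edgeR 4.0.16 in R 4.3.3. The summing and calling were tested on simulated data. The members and gene lists were chosen with earlier results of these data known. Named genes were the 7 markers, up to 4 per list by ratio and role, the 10 highest and 10 lowest per stage (20 CPM or more) and the 5 highest and 5 lowest between stages (50 CPM or more). Others were chosen after their values were seen. Alternatives were the depth, doublets, number of markers, gates, filter, pseudocount and scaling. Some genes of the lists enter the counts and medians but are not reported here by name.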

Additional observations from a re-analysis of the deposited data

How the results depend on the processing

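No paired analysis was possible because each stage had 1 library and the labels share only the number 2. Direction was checked for a set of named genes and for list medians, and none of these past 2-fold changed it under an alternative. Pubertal *Tnc*, within 2-fold at a log2 ratio of -0.94, was at 1.03 with both *Pi16* and *Dpp4*. The adult median of pericyte and smooth muscle markers, which rests on 1 tested gene, was 0.84 and reached -1.39 at the lowest of the alternatives. The member share at puberty, in the adult and as adult over puberty was 7.28%, 3.30% and 0.453 with cells thinned to 3000 UMIs before the whole rule, 13.9%, 7.68% and 0.550 at 6000 UMIs, 36.9%, 26.9% and 0.729 with 3 or more markers, and 15.5%, 8.70% and 0.562 with 5 or more. The shares were 23.002% and 15.03% without probable doublets and the cells with most genes. They were 27.01% and 18.1% in cells of 10000 to 20000 UMIs, and 25.7% and 16.9% with at least 2 *Pdgfra* UMIs. With both *Pi16* and *Dpp4*, a choice made after seeing the data, the adult share was 16.9%. The 5 genes lower in pubertal members became 11 without probable doublets and the cells with most genes. They became 2 with 3 or more markers, 13 with 5 or more and 2 with both *Pi16* and *Dpp4*. They became 24 against cells with none of the markers and 3 under TMM. The number was 15 at 10 CPM, 1 at 50 CPM, 3 with 5 CPM added and 719 without a filter. The 74 lower in the adult became 37 when cells were chosen on part of their UMIs and read in the rest, 5 with both *Pi16* and *Dpp4*, 24 at 50 CPM and 813 without a filter. Genes higher in members numbered 934 and 1012 without a filter. Between adult and pubertal members, 173 genes were lower under TMM, 66 at 50 CPM and 938 without a filter, and 323 were higher at 10 CPM, 118 at 50 CPM and 2249 without a filter. A filter decides how many low genes with few UMIs enter these counts. Depth limits the shares, since a marker with few UMIs is missed in shallow cells.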

Other observations

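Of the 86 genes at least 2-fold higher in members at both stages, 34 were in none of the gene lists. The following were chosen after their values were seen. *Rnf213*, a large ubiquitin ligase, had ratios of 5.15 at puberty and 5.36 in the adult. *Cd274*, which encodes the checkpoint ligand PD-L1, had ratios of 3.74 and 2.83. *Pml*, the organiser of nuclear bodies, had ratios of 3.26 and 2.57, and *Lgals9*, a galectin, of 2.11 and 2.21. *Prlr*, the prolactin receptor, had ratios of 2.34 and 3.49, and *Nampt*, an enzyme of NAD synthesis, of 2.12 and 2.04.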
